A study of Homo sapiens with 9 samples.

Results

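The 5 genes described here are SHISA2, ZCCHC12, BEX1, C11orf96 and IVNS1ABP, and they were picked because their signal moved in opposite directions from wild type when the histone acetyltransferase MOF was raised and when it was depleted. They were found by taking every probe set whose platform annotation names exactly 1 gene symbol and whose symbol is one of the 5, which gave 9 of the 54675 probe sets on the array. Of these 9, 7 were bright enough to be tested, at least 1 for each gene, and 2 lay below the filter on dim signal. The signals of the same 9 arrays chose the genes, so their levels and differences from wild type are given as a description, with no test.

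The arrays measured total RNA from HEK293, an established human embryonic kidney cell line, with 1 array per sample and 3 arrays in each of 3 groups. The wild type group was HEK293 without any treatment. The overexpression group had been transfected with a plasmid encoding human MOF, and the knockdown group with small interfering RNA against MOF, both by standard transfection protocols, with the medium the same for all. Samples treated with EGFP double-stranded RNA, which the design names as a control, were not among the 9 samples. Transfection and the change in MOF therefore cannot be told apart in either comparison with wild type. Nothing in the labels tells separate cultures from repeat preparations of one, so each p-value rests on array-to-array spread that may be technical only.

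MOF is the product of KAT8. It acetylates lysine 16 of histone H4, a mark of open chromatin, and works in separate protein complexes that bind different sets of genes. Neither the protein nor the mark is measured by these arrays. The 5 genes have unlike roles. ZCCHC12 encodes a zinc knuckle protein of the PNMA family that acts as a transcriptional coactivator in bone morphogenetic protein (BMP) signalling. BEX1 encodes a small brain-expressed X-linked protein that binds the p75 neurotrophin receptor. SHISA2 encodes a protein of the endoplasmic reticulum that holds back the maturation of Frizzled and fibroblast growth factor (FGF) receptors, the receptors of WNT and FGF signals. IVNS1ABP encodes a BTB-Kelch protein found through its binding to the influenza virus NS1 protein and linked to splicing and to the actin cytoskeleton. C11orf96 is an open reading frame of chromosome 11.

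RefSeq sequence of assembly GRCh38.p14 was at hand for the promoters of 4 of the 5 genes, and is shown here because these genes moved together or opposite to each other in the same arrays. The 250 bases before each transcription start are printed 5′ to 3′ on the gene's own strand. Capitals mark matches, on either strand, to any of 6 motifs: the GC box GGGCGG, the CCAAT box CCAAT, the TATA box TATAAA, the E-box CACGTG, the cAMP response element half-site TGACG and the EGR site GCGTGGGCG. No match overlapped another in these windows.
ZCCHC12, chrX:118823574-118823823, plus strand: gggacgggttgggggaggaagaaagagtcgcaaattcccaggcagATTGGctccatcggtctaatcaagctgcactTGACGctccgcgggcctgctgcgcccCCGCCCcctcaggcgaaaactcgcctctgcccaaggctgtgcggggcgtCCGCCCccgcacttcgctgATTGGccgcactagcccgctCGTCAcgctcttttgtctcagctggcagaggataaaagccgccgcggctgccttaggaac
BEX1, chrX:103064172-103064421, minus strand: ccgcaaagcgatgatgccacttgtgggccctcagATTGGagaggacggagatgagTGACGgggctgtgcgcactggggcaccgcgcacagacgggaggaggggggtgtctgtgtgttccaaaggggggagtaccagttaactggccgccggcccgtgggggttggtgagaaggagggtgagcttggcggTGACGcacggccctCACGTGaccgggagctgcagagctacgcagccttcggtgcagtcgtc
SHISA2, chr13:26052017-26052266, minus strand: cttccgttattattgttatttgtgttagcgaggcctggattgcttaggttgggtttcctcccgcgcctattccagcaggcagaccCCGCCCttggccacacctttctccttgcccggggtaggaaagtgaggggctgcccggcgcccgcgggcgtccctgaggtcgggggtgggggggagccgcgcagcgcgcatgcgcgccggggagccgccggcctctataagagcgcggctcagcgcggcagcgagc
IVNS1ABP, chr1:185317244-185317493, minus strand: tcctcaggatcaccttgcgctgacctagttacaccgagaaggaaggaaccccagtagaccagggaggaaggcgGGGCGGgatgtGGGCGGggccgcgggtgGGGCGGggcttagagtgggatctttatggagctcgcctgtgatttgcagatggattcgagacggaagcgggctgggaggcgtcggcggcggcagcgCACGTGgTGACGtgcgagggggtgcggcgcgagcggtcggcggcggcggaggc
All 4 windows were richer in G and C than the median of 58.0% over 35116 promoters of the same length, at 64.4% for ZCCHC12, 65.6% for BEX1, 67.6% for SHISA2 and 68.4% for IVNS1ABP. They held 22, 19, 26 and 28 CpG dinucleotides in that order, against a median of 11.

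The promoter windows of the genes that moved the same way as KAT8 and of those that moved the other way had matches in common. The half-site TGACG stood at 2 places in ZCCHC12, 2 in BEX1 and 1 in IVNS1ABP, and is held by 21.2% of all promoters of this length. The E-box was matched once in BEX1, at -47, and once in IVNS1ABP, at -53, counted from the transcription start to the first base of the match, and is held by 6.34% of promoters. GC boxes numbered 3 in IVNS1ABP, 2 in ZCCHC12 and 1 in SHISA2, with 42.6% of promoters holding 1 or more. CCAAT was matched at 2 places in ZCCHC12 and 1 in BEX1, and 32.01% of promoters hold it. The letters of the TATA box and of the EGR site, held by 10.7% and 0.72% of promoters, were not in these 4 windows. A match of letters is a description and does not show that a factor binds there.

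KAT8, the targeted gene, comes before the 5 genes because it tests the labels. It was read by 2 probe sets, and the brighter had signals of 2909.5, 3796.8 and 3248.7 in wild type replicates 1 to 3, of 4594.3, 4727.2 and 4763.0 after overexpression and of 432.0, 705.8 and 517.1 after knockdown. The 3 groups did not overlap. After knockdown the signal was 16.6% of that in wild type, a log2 difference of -2.61 (SE 0.17, limma adjusted p = 4.72e-05), and by exact permutation of the arrays, two-sided, p was 0.1, the lowest value reachable with 3 against 3. After overexpression the log2 difference was 0.51 (SE 0.17, limma adjusted p = 0.259), and it passed the test once replicate number entered as a block (limma adjusted p = 0.0381). The dimmer probe set had a log2 difference of -1.58 (SE 0.26, limma adjusted p = 0.00296) after knockdown and of 0.11 (SE 0.26, limma adjusted p = 0.91) after overexpression. Without overexpression replicate 1 the last value was -0.13. So the label of the knockdown arrays was borne out by both probe sets, while the rise after overexpression was small next to the loss after knockdown.

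ZCCHC12, BEX1 and C11orf96 followed KAT8: they were highest after overexpression, intermediate in wild type and lowest after knockdown. ZCCHC12, read by 1 probe set, had signals of 2451.3, 2620.7 and 2330.4 in wild type. They were 6306.8, 5967.2 and 6141.3 after overexpression and 2082.8, 1548.5 and 1427.8 after knockdown. The groups did not overlap, and the knockdown replicate 1 array lay closest to wild type. The mean was 2467 ± 146 (SD, n = 3) in wild type, 6138 ± 170 after overexpression and 1686 ± 349 after knockdown. On the log2 scale the difference from wild type was 1.32 (SE 0.13) after overexpression, or 2.49-fold, and -0.57 (SE 0.13) after knockdown. Between arrays of the same replicate number the overexpression difference ran from 1.19 to 1.40. The knockdown difference was -0.23 in replicate 1, -0.76 in replicate 2 and -0.71 in replicate 3, so it was smallest in the replicate 1 arrays. In RNA from a whole culture, fewer cells holding a transcript and less of it in each cell cannot be told apart.

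BEX1, also read by 1 probe set, had signals of 3829.7, 4058.6 and 4542.7 in wild type, 6265.5, 7370.6 and 7173.5 after overexpression and 3302.2, 3154.4 and 2885.7 after knockdown. Again the groups did not overlap. The gap between the lowest wild type array and the highest knockdown array was narrower than that between wild type and overexpression. The log2 difference from wild type was 0.74 (SE 0.10) after overexpression, 1.67-fold, and -0.41 (SE 0.10) after knockdown. By replicate number the knockdown difference was -0.21, -0.36 and -0.65, and the overexpression difference 0.71, 0.86 and 0.66. BEX1 and its family member BEX2 encode closely related proteins. The probe sequences were not used here, so a share of signal from the wrong member was not tested.

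C11orf96 was read by 2 probe sets of unlike brightness. The bright one had signals of 2363.3, 2862.2 and 2458.6 in wild type, 3960.6, 4579.7 and 4375.4 after overexpression and 1955.8, 1881.2 and 1983.0 after knockdown. The 3 groups were apart, and the knockdown arrays were the tightest, with an SD of 52.7 around a mean of 1940. The log2 difference from wild type was 0.75 (SE 0.11) after overexpression, 1.68-fold, and -0.40 (SE 0.11) after knockdown. The dim probe set ran from 42.5 to 190.3 in wild type, from 37.4 to 188.7 after overexpression and from 67.4 to 167.7 after knockdown, with all groups overlapping. Its mean lay below the filter, at the percentile 41.1 of all probe sets. The pattern of C11orf96 therefore rests on 1 of its 2 probe sets.

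**Figure D1:**
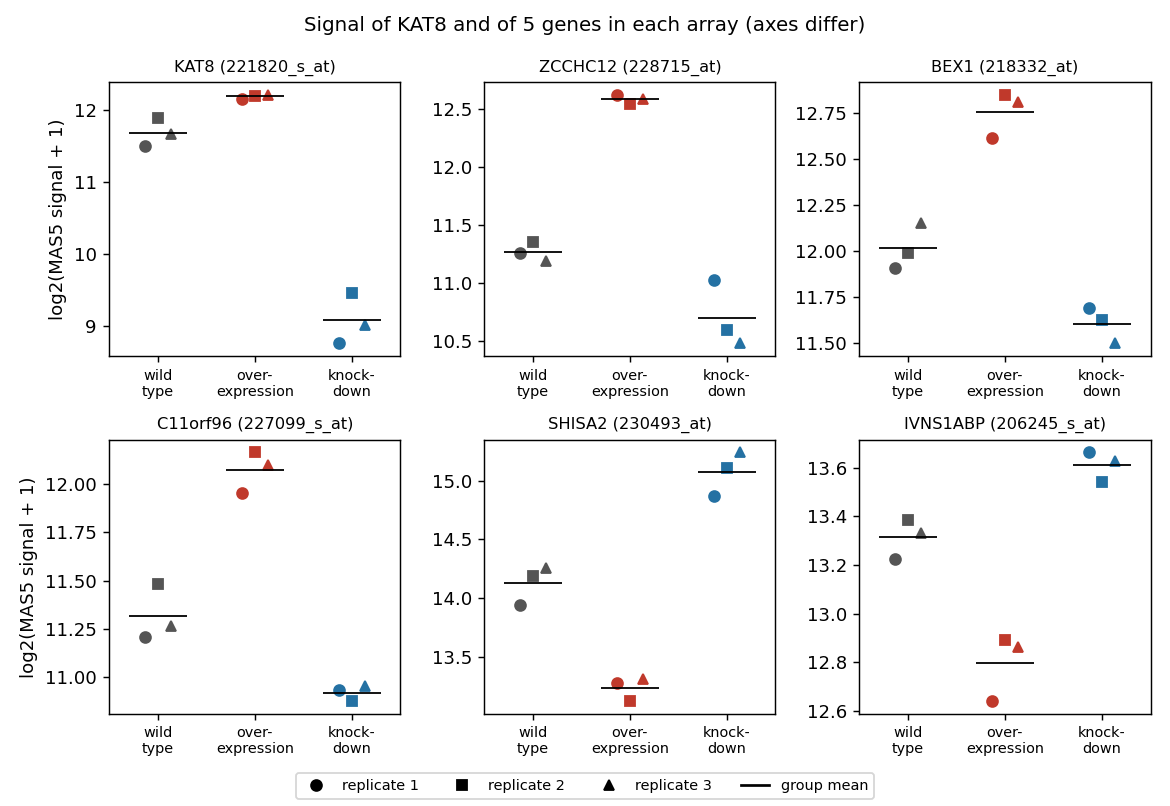
Each panel plots log2(MAS5 signal + 1) of 1 probe set in every array, by group, with the replicate number as the marker and the group mean as a line; axes differ between panels. KAT8, ZCCHC12, BEX1 and C11orf96 are highest after overexpression and lowest after knockdown, while SHISA2 and IVNS1ABP run the other way, and in no panel do the groups overlap.

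SHISA2 and IVNS1ABP ran against KAT8, with the lowest signal after overexpression and the highest after knockdown. SHISA2, read by 1 probe set, was bright, at the percentile 97.4 of all probe sets. Its signals were 15738.0, 18680.9 and 19580.4 in wild type, 9923.1, 8904.2 and 10131.5 after overexpression and 29952.3, 35331.8 and 38729.5 after knockdown. The groups were far apart for their spread, with means of 18000 ± 2010 (SD, n = 3), 9653 ± 657 and 34671 ± 4426. The log2 difference from wild type was -0.89 (SE 0.11) after overexpression and 0.94 (SE 0.11) after knockdown. By replicate number its difference after knockdown was 0.93, 0.92 and 0.98, and after overexpression -0.67, -1.07 and -0.95.

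IVNS1ABP was read by 4 probe sets, of which 3 were tested. The brightest had signals of 9563.7, 10712.5 and 10316.1 in wild type, 6388.2, 7608.0 and 7455.2 after overexpression and 12971.1, 11911.3 and 12644.4 after knockdown. The groups did not overlap, and the overexpression replicate 1 array was the lowest of all 9. The log2 difference from wild type was -0.51 (SE 0.09) after overexpression and 0.30 (SE 0.09) after knockdown, the smallest differences of the 5 genes when each is read by its brightest probe set. In replicate 2 the knockdown difference was 0.15, against 0.44 in replicate 1 and 0.29 in replicate 3.

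The other 2 tested probe sets of IVNS1ABP gave the same order of groups. The second in brightness had signals of 2457.0, 2808.5 and 2838.3 in wild type, 1498.3, 1947.3 and 1913.9 after overexpression and 3666.3, 4148.1 and 4282.8 after knockdown. Its log2 differences from wild type were -0.60 (SE 0.13) and 0.58 (SE 0.13). The third had differences of -0.50 (SE 0.12) and 0.38 (SE 0.12), with arrays from 2273.4 to 2409.8 in wild type, from 1470.1 to 1835.6 after overexpression and from 2672.6 to 3315.7 after knockdown. All 3 read the same RNA, so they are not replicates of each other. The fourth was dim, with 142.1 to 172.1 in wild type, 58.5 to 125.7 after overexpression and 94.2 to 119.1 after knockdown. It was lower than wild type in both treatments, with log2 differences of -0.92 (SE 0.47) and -0.57 (SE 0.47), and so did not show the opposite pattern.

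**Figure D2:**
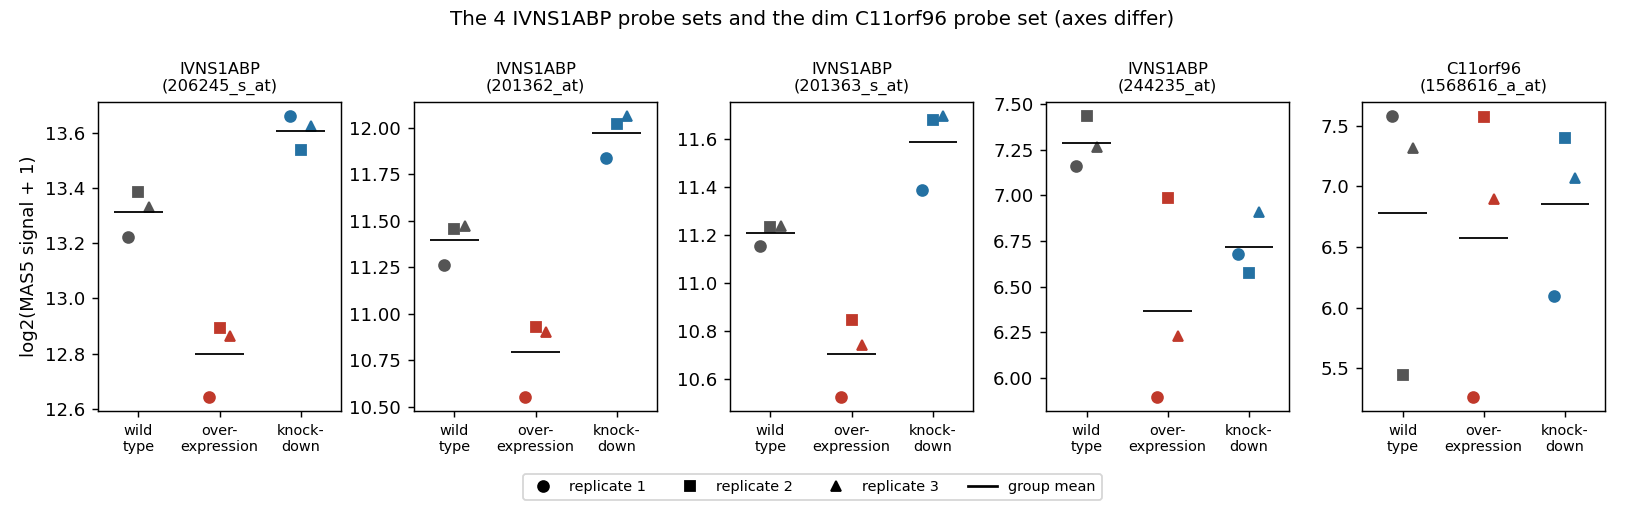
Each panel plots log2(MAS5 signal + 1) in every array for the 4 IVNS1ABP probe sets and the dim C11orf96 probe set, by group, with the group mean as a line; axes differ. The first 3 panels share the order overexpression, wild type, knockdown from low to high, while the fourth IVNS1ABP probe set is lower in both treatments and the groups of the dim C11orf96 probe set overlap.

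All 7 tested probe sets of the 5 genes had 3 groups of arrays with no overlap and wild type in the middle, which is what they were picked for. Among the 27307 probe sets tested, 1.18% had the order of KAT8 with no overlap, as 3 of the 7 did, and 0.875% the reverse order, as 4 did. In single comparisons the arrays lay wholly above wild type for 9.92% of tested probe sets after overexpression and wholly below for 7.67%. After knockdown those shares were 16.9% above and 18.3% below. Since the genes were chosen on these contrasts, nothing is read from their counts.

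The size of the difference was not even between the treatments. For ZCCHC12, BEX1, C11orf96 and IVNS1ABP's brightest probe set the log2 difference after overexpression was larger in size than that after knockdown, whereas for KAT8 itself it was 0.51 after overexpression and -2.61 after knockdown. The genes were picked on these same differences, and 130 probe sets passed the limma test after overexpression against 4289 after knockdown. To pass after overexpression a probe set needed a larger difference for its SE, so nothing is read from these relative sizes. Within groups the order of the arrays was shared with the brighter KAT8 probe set in some cases and not in others. In wild type, C11orf96 and the brightest IVNS1ABP probe set ran in its order, highest in replicate 2 and lowest in replicate 1, while BEX1 and SHISA2 were highest in replicate 3. Among the knockdown arrays it was highest in replicate 2, while ZCCHC12 and BEX1 were highest in replicate 1 and SHISA2 in replicate 3. The dimmer KAT8 probe set was lowest in knockdown replicate 2 and highest in knockdown replicate 3, so the KAT8 probe sets did not share an order there. With 3 arrays per group no relation between a gene and KAT8 could be tested inside a group.

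**Figure D3:**
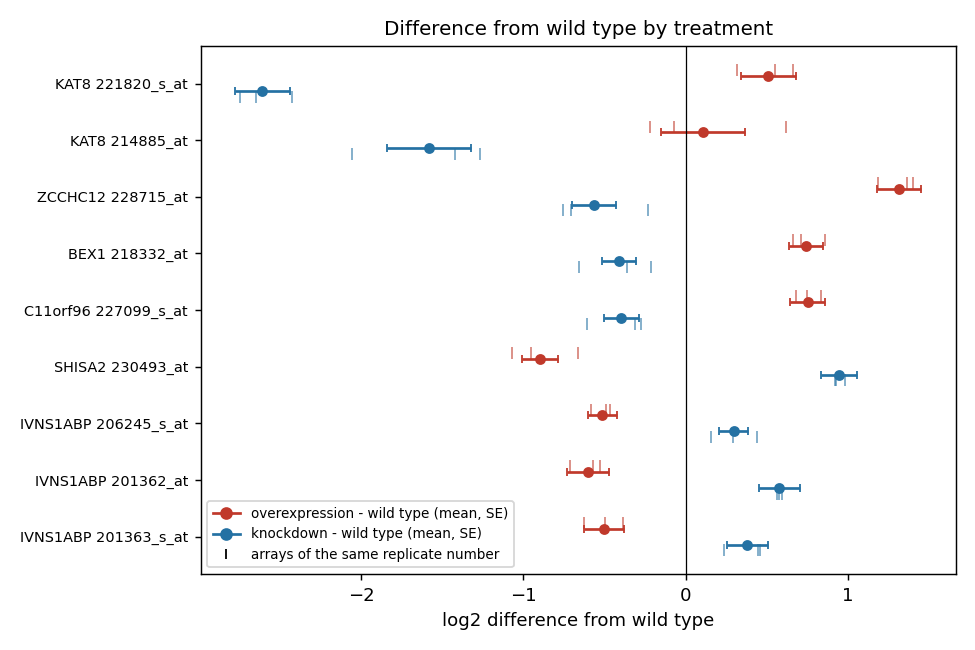
Log2 difference from wild type after overexpression and after knockdown for the KAT8 probe sets and the 7 tested probe sets of the 5 genes; circles are group differences with their SE, and short strokes the differences between arrays of the same replicate number. Except for the overexpression strokes of the dimmer KAT8 probe set, the 3 strokes of a comparison fall on the same side of 0.

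With a limma adjusted p under 0.05 in both comparisons with wild type, 13 probe sets of 27307 were called in opposite directions, 5 higher after overexpression and 8 lower, and 61 in the same direction. The count can be no larger than the 130 probe sets called after overexpression. They named 10 genes, among them the 5 described here, by 5 of their probe sets. The 5 were picked for opposite change in these arrays, so their presence among the calls is built in and does not test them. Both comparisons share the wild type arrays, so an outlying wild type mean would move both the same way. The 5 other genes were EGR1, FLRT3, RBM15, DDIT4 and EIF5. EGR1, an immediate early zinc finger factor, had the largest opposite differences, 2.24 (SE 0.16) after overexpression and -1.76 (SE 0.16) after knockdown on its brightest probe set. FLRT3, a cell surface protein that binds FGF receptors and axon guidance receptors, had -0.88 (SE 0.11) and 1.20 (SE 0.11).

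RBM15, an RNA-binding protein of the machinery that methylates adenosine in RNA, had -0.94 (SE 0.12) and 0.48 (SE 0.12) on 1 probe set. Its brightest probe set had 0.31 and 0.25, so its probe sets did not move as one. DDIT4, a stress-induced inhibitor of the growth kinase mTOR, had -0.38 (SE 0.07) and 0.73 (SE 0.07). EIF5, a translation initiation factor, had -0.56 (SE 0.07) and 0.30 (SE 0.07) on 1 of the 2 probe sets counted. Its brightest probe set had -0.52 and 0.10, so the difference after knockdown was smaller there.

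The count of opposite calls depended on single arrays. Leaving out 1 array gave between 4 and 10 such probe sets, and the number of the 5 genes among them ran from 0 to 4. IVNS1ABP was missing in all 9 of these fits, and also in the fit without the filter on dim signal. Without wild type replicate 2 the count was 4 and held none of the 5 genes. Without knockdown replicate 2 or knockdown replicate 3 it was 5, with SHISA2 the only one of the 5, and without overexpression replicate 3 it was 6, with ZCCHC12 and SHISA2. It was 7 without wild type replicate 3 and 8 without wild type replicate 1. Under the replicate block the count was 66, and all 13 were among them. Since these arrays picked the 5 genes, which of them stayed in a fit is a description and no test.

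**Figure D4:**
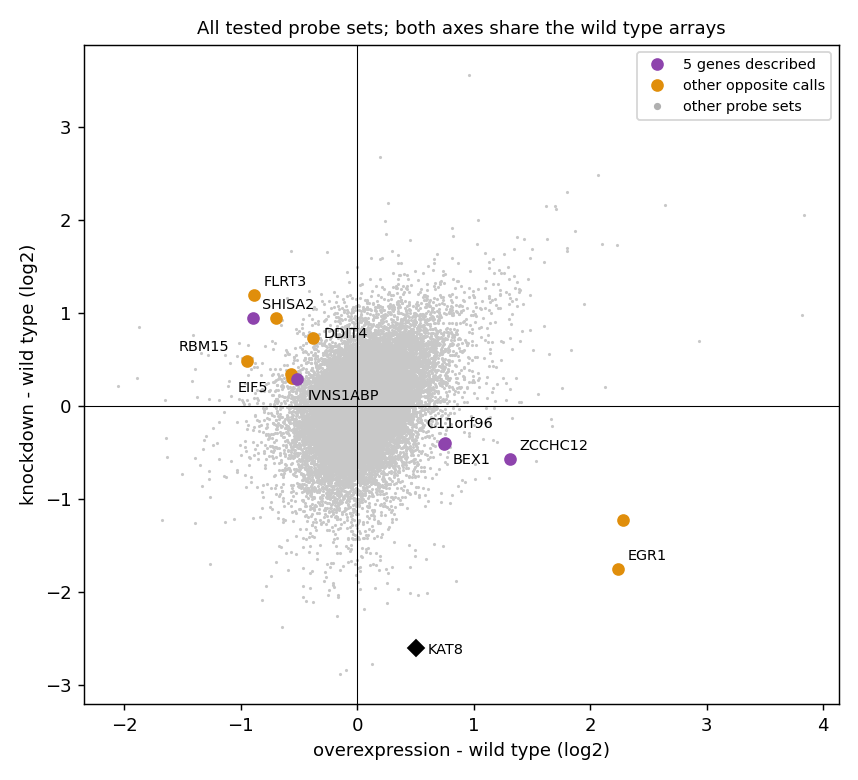
Each point is 1 tested probe set, with its log2 difference from wild type after overexpression on the x axis and after knockdown on the y axis; both axes share the wild type arrays. The 13 probe sets called in opposite directions are coloured, purple for the 5 genes described and orange for EGR1, FLRT3, RBM15, DDIT4 and EIF5, and the diamond is KAT8.

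The genes whose profile over the 9 arrays lay nearest to each of the 5 were found by the root mean square difference in log2 signal, after each probe set was centred on its wild type mean. BEX1 and C11orf96, which lie on different chromosomes, were nearest to each other, at 0.11 log2 units. Both were picked for opposite change in these same arrays, so a small distance is partly built into the choice. The next nearest to BEX1 was FOXA3, a forkhead factor, at 0.19, and then KRT8, a keratin of simple epithelia, at 0.19. KRT8 was also the third nearest to C11orf96, after GPRC5C, an orphan receptor, at 0.16. KRT8 signals ran from 878.5 to 1013.6 in wild type, from 1351.7 to 1657.7 after overexpression and from 597.5 to 720.5 after knockdown.

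SHISA2 was nearest to FLRT3, at 0.19, followed by a DIDO1 probe set at 0.24 and a SQLE probe set at 0.25. The DIDO1 and SQLE probe sets were not the brightest of their genes, and the brightest DIDO1 probe set differed from wild type by 0.06 after overexpression and -0.03 after knockdown, and the brightest SQLE probe set by -0.69 and 0.08. ZCCHC12 was nearest to EGR1, on an EGR1 probe set not among the 13, at 0.19, then to a YPEL2 probe set at 0.21 and to the WNT receptor gene FZD10 at 0.30. The brightest YPEL2 probe set differed from wild type by 0.35 after overexpression and 0.00 after knockdown. IVNS1ABP was nearest to EIF5, on 1 of the 2 EIF5 probe sets counted above, at 0.09, then to LONRF1 at 0.09 and to a probe set of the interferon receptor gene IFNAR2 at 0.11. The brightest IFNAR2 probe set differed by -0.06 after overexpression and -0.07 after knockdown, with no opposite movement. EIF5 signals on that probe set ran from 15904.3 to 16699.3 in wild type, from 10661.3 to 11480.4 after overexpression and from 19882.8 to 20275.0 after knockdown. These distances are a description over 9 arrays, which share group and replicate number.

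Families and pathway partners of the 5 genes were counted in the limma fit, on the brightest tested probe set of each gene and with the 5 genes themselves left out. Over all tested probe sets, 0.319% were called higher and 0.157% lower after overexpression, 6.82% higher and 8.89% lower after knockdown, and 5.75% higher and 8.76% lower in knockdown against overexpression. The median log2 difference over the 12036 genes tested was 0.00, -0.04 and -0.05 in those 3 comparisons. The shares called count every tested probe set, whereas the lists count only the brightest of each gene, so they are unlike measures. Under a stricter filter at the 75th percentile of signal, 115 of 13654 probe sets were called after overexpression and 3020 after knockdown. Between the treatments 2865 were called. Over the 6 lists 1 gene was called after overexpression, 16 after knockdown and 14 between the treatments. Under the replicate block these counts were 7, 25 and 25. The block also raised the calls over all 27307 tested probe sets, from 130, 4289 and 3963 to 1022, 7637 and 7334. Block counts within a list are to be read against that rise. After overexpression the block added FGFR2, FZD10, PNMA6A, ACVR2B, KLHL9 and ENC1 (limma adjusted p from 0.00862 to 0.0486).

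The BEX and TCEAL genes sit in a cluster on the X chromosome and encode small related proteins. Of 9 tested members other than BEX1, none passed the limma test after overexpression (1 at an unadjusted p under 0.05), and 2 fell after knockdown, or 5 under the replicate block, with a median log2 difference of -0.26. BEX2 had signals of 20466.0 to 22726.8 in wild type, 23329.1 to 25918.2 after overexpression and 14298.8 to 14990.2 after knockdown. It fell by 0.58 on the log2 scale after knockdown (SE 0.07, limma adjusted p = 0.000693) and differed by 0.19 (SE 0.07, limma adjusted p = 0.326) after overexpression. BEX5 fell by 0.86 after knockdown (SE 0.09, limma adjusted p = 0.000234), from 4597.0 to 5169.5 in wild type to 2608.8 to 2781.2, and differed by 0.10 (SE 0.09) after overexpression.

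BEX3, which takes part in cell death signalled by the p75 neurotrophin receptor, differed by -0.26 after knockdown (SE 0.09, limma adjusted p = 0.0704, and 0.0253 under the replicate block), and BEX4 by -0.04 (SE 0.08). TCEAL3 differed by -0.39 in knockdown against overexpression (limma adjusted p = 0.0501, and 0.0227 under the replicate block). In knockdown against overexpression BEX2, BEX5 and TCEAL8 were lower, 3 of the 9, or 5 under the replicate block, which added TCEAL1 and TCEAL3. TCEAL8 was also lower than wild type after knockdown under the block (limma adjusted p = 0.00648). In knockdown against overexpression it kept its call only without overexpression replicate 1, with its adjusted p reaching 0.162 when overexpression replicate 3 was omitted.

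**Figure D5:**
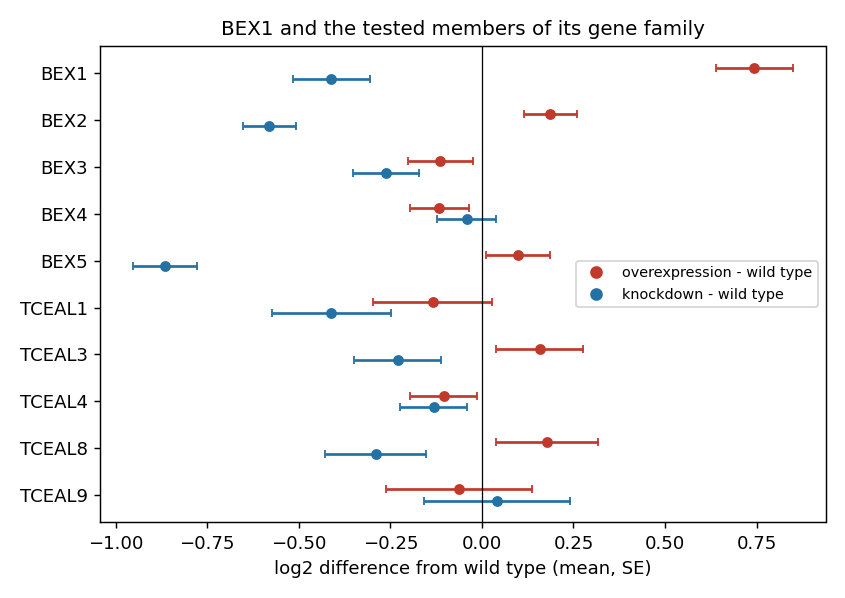
Log2 difference from wild type, with its SE, after overexpression and after knockdown for BEX1 and the 9 other tested genes of the BEX and TCEAL family. BEX1, the only one picked on these differences, has the largest after overexpression, 0.74, and BEX5 the largest after knockdown, -0.86.

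For ZCCHC12, the PNMA family and the BMP pathway were counted. Of 7 tested PNMA family genes other than ZCCHC12, none passed the limma test after overexpression (1 at an unadjusted p under 0.05), and after knockdown CCDC8 rose and PNMA2 and PNMA8A fell, with a median of -0.04. PNMA2 fell by 0.77 (SE 0.12, limma adjusted p = 0.00208), CCDC8 rose by 0.44 (SE 0.09, limma adjusted p = 0.0072) and PNMA8A fell by 0.35 (SE 0.11, limma adjusted p = 0.0499). The other tested probe set of PNMA2 differed by -0.46 and that of CCDC8 by 0.21. Of the 6 fits that left out 1 array, PNMA8A passed only in that without wild type replicate 1, and its adjusted p reached 0.179 when wild type replicate 2 was omitted. ZCCHC18, the nearest relative of ZCCHC12, differed by -0.03 (SE 0.14) after overexpression and -0.36 after knockdown (SE 0.14, limma adjusted p = 0.0985). In knockdown against overexpression PNMA1 was higher and PNMA2 and PNMA8A lower. The replicate block added PNMA1 to the genes that rose after knockdown (limma adjusted p = 0.0192) and CCDC8 to those higher than after overexpression (0.0193). The PNMA1 call was kept only without overexpression replicate 3, and its adjusted p reached 0.141 when knockdown replicate 2 was omitted. The PNMA8A call was kept only without overexpression replicate 1 or knockdown replicate 2, and its adjusted p reached 0.0925 when overexpression replicate 3 was omitted.

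Of 17 tested BMP receptors, SMAD proteins, coactivators and ID targets, 1 rose after overexpression and 3 rose and 1 fell after knockdown, with medians of 0.05 and 0.16. ID1, an inhibitor of basic helix-loop-helix factors that BMP signals induce, rose in both. It rose by 0.80 after overexpression (SE 0.10, limma adjusted p = 0.00774, and 0.0659 without overexpression replicate 3) and by 0.71 after knockdown (SE 0.10, limma adjusted p = 0.00161). Its signals were 1627.5 to 1948.8 in wild type, 3038.2 to 3294.4 after overexpression and 2933.3 to 2972.5 after knockdown, so it did not share the opposite pattern of ZCCHC12. After knockdown the receptor gene BMPR2 rose by 0.41 (SE 0.08, limma adjusted p = 0.0087) and ID4 fell by 0.46 (SE 0.09, limma adjusted p = 0.00868). The inhibitory SMAD7 rose by 0.59 (SE 0.18, limma adjusted p = 0.047) and kept that call only without wild type replicate 1, its adjusted p reaching 0.159 when wild type replicate 2 was omitted. The other tested probe sets of ID4 differed by -0.26, 0.05 and 0.05. The activin receptor gene ACVR2B differed by -0.46 after overexpression (limma adjusted p = 0.12, and 0.00862 under the replicate block). In knockdown against overexpression BMPR2 and BMPR1B were higher and ID4 lower. Under the replicate block 5 rose and 1 fell after knockdown, with SMAD4 and SMAD6 added, and 6 were higher and 1 lower than after overexpression. The BMPR2 call ended whichever of the 6 arrays was omitted (adjusted p of 0.115 at most, lacking overexpression replicate 3), and that of BMPR1B was kept only without overexpression replicate 2 or knockdown replicate 3 (0.117 at most, lacking overexpression replicate 3).

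For SHISA2, 4 other tested SHISA genes and 16 receptors were counted. SHISAL1 was the only SHISA gene to pass the limma test, by a fall of 0.94 after knockdown (SE 0.18, limma adjusted p = 0.00684), the opposite direction to SHISA2. None passed after overexpression (1 at an unadjusted p under 0.05). SHISA3 and SHISA5 differed by -0.03 (SE 0.24) and -0.17 (SE 0.15) after knockdown, and SHISA4 was below the filter. SHISA8 differed by 0.39 after overexpression (limma adjusted p = 0.347). The medians of the 4 genes were 0.16 after overexpression and -0.10 after knockdown, and SHISAL1 was the 1 gene of them lower in knockdown against overexpression.

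Of 16 tested Frizzled, LRP and FGF receptor genes, none passed the limma test after overexpression (3 at an unadjusted p under 0.05), and 1 rose and 1 fell after knockdown, with a median of -0.04 in each comparison. FZD7 rose by 0.40 after knockdown (SE 0.10, limma adjusted p = 0.023) and FZD2 fell by 0.44 (SE 0.13, limma adjusted p = 0.0442). The other FZD2 probe set differed by 0.58, in the opposite direction. The FZD2 call was kept only without wild type replicate 3 (0.153 at most, lacking knockdown replicate 2). That of FZD7 was kept only without wild type replicate 1 or knockdown replicate 1 (0.0886 at most, lacking knockdown replicate 3). In knockdown against overexpression FGFR2 was higher by 0.52 (SE 0.08, limma adjusted p = 0.00296) and FZD10 lower by 1.59 on the log2 scale, a difference of -1.59 (SE 0.25, limma adjusted p = 0.00238). The other tested probe sets of FGFR2 differed there by -0.01 to 0.90. The replicate block added FZD7 to the genes higher in that comparison (limma adjusted p = 0.0304) and FZD2 to those lower (0.00646). FZD10 differed from wild type by 1.20 after overexpression (SE 0.25, limma adjusted p = 0.0724, and 0.0191 under the replicate block). Its signals were 226.3 to 425.2 in wild type, 638.2 to 855.8 after overexpression and 233.4 to 262.0 after knockdown.

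For IVNS1ABP, 33 tested genes of BTB-Kelch proteins, which bring targets to the CUL3 ubiquitin ligase, and of that ligase were counted. None passed the limma test after overexpression (4 at an unadjusted p under 0.05). After knockdown 1 rose and 3 fell, with medians of -0.03 and -0.05 in the 2 comparisons. ENC1, an actin-binding Kelch protein, rose by 0.70 after knockdown (SE 0.15, limma adjusted p = 0.00973). Its other tested probe set differed by 0.29. KLHL9, which acts with CUL3 in mitosis, fell by 0.43 (SE 0.08, limma adjusted p = 0.00423), KLHL12 by 0.42 (SE 0.08, limma adjusted p = 0.0062) and KLHL20 by 0.52 (SE 0.13, limma adjusted p = 0.0252). The other tested probe sets of KLHL9 differed by -0.46 and 0.47, the last in the opposite direction. The KLHL20 call ended without wild type replicate 2 (adjusted p = 0.105), knockdown replicate 2 or knockdown replicate 3. CUL3 itself differed by 0.00 (SE 0.07) after overexpression and 0.07 (SE 0.07) after knockdown. In knockdown against overexpression KLHL17 was higher and KLHL20 lower. Under the replicate block 2 rose and 5 fell after knockdown, with KLHL17, KLHL36 and KBTBD7 added, and 1 was higher and 3 lower than after overexpression. The KLHL17 call was kept only when replicate 2 or 3 of overexpression was omitted, its adjusted p reaching 0.129 lacking knockdown replicate 3. That of KLHL20 was kept only without overexpression replicate 1 or knockdown replicate 1 and reached 0.122 lacking knockdown replicate 3.

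The nearest protein-coding genes on the chromosome were read as well, 2 on each side of each gene in the RefSeq table, a choice made after the values of the 5 genes were known. Of these 20 genes 14 were tested. None passed the limma test after overexpression (2 at an unadjusted p under 0.05), and after knockdown 2 rose and 2 fell, or 2 and 3 under the replicate block, which added TRMT1L beside IVNS1ABP. Beside C11orf96, ALKBH3, a DNA and RNA demethylase, fell by 0.93 after knockdown (SE 0.17, limma adjusted p = 0.00462). After overexpression it differed by 0.44 (SE 0.17, limma adjusted p = 0.315, and 0.0433 under the replicate block). Both differences had the direction of those of C11orf96. Beside ZCCHC12, LONRF3 rose by 0.65 (SE 0.16, limma adjusted p = 0.021) and the interleukin receptor gene IL13RA1 by 0.40 (SE 0.12, limma adjusted p = 0.0481), both against the direction of ZCCHC12. Beside IVNS1ABP, SWT1 fell by 0.68 (SE 0.15, limma adjusted p = 0.0114), also against its neighbour's direction. The ALKBH3 and SWT1 calls were kept in all 6 fits that omitted 1 array. That of IL13RA1 was kept only without wild type replicate 1 (0.143 at most, lacking wild type replicate 3). The LONRF3 call ended when replicate 2 or 3 of wild type was omitted, and when knockdown replicate 3 was (adjusted p = 0.0776).

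The 9 arrays were alike in brightness, with a 2% trimmed mean signal of 1500.2 in each, and log2 signals of tested probe sets correlated from 0.973 to 0.985 within groups. Spiked poly-A controls differed by 2.22-fold, with the lower signal in the 3 replicate 1 arrays, 1 of each group, so the values by replicate number given above show each gene in and outside replicate 1. Of 8 genes chosen as markers of HEK293, 7 were above the filter, among them the neurofilament genes NEFL and NEFM, the keratin gene KRT18 and VIM. LHX1 was below it. Of 9 markers of other cell types that could be read, 2 were above it, HBB and PECAM1, at the percentiles 51.7 and 50.9 of all probe sets. INS was at the percentile 2.75. HBA1, also chosen, had no probe set naming it alone. The precision is limited by the 3 arrays per group.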

How the data were processed

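Total RNA was labelled with biotin and measured on 9 arrays, per the labels' protocols. Each deposited file column holds an intensity on a linear scale for every probe set, and per the submitters' processing notes the authors used MAS5. No version or setting of MAS5 was given in the sources. All arrays share 1 trimmed mean, so more or less RNA per cell would not show. Dim MAS5 signals vary more between arrays, and a fold on log2(signal + 1) understates the change of dim probe sets.

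Samples were grouped by title. From the deposited intensity, log2(signal + 1) was computed, 62 control probe sets were left out, and the 27307 probe sets with a mean at or above the median (7.56, a signal of 188) were tested two-sided with limma 3.58.1 (R 4.3.3). All 9 arrays entered 1 lmFit model, which left 6 degrees of freedom, and eBayes used an intensity trend. P-values were adjusted by Benjamini-Hochberg, with a threshold of 0.05. The fit was tested on simulated data, with 100 probe sets changed by each of 2 sizes. In overexpression against wild type it called 12% of changes of 0.5 on the log2 scale and 48% of changes of 1. In knockdown against wild type it called 16% and 63%. A gene that did not pass is therefore not shown to be unchanged. Calls among the unchanged probe sets numbered 1 and 6 in those comparisons. All other probe sets were simulated without change, whereas 4289 were called in the real knockdown comparison. The adjustment was thus stricter in the simulation, and its shares may understate what the knockdown comparison could call. SE values of the 5 genes come from the same fit, those of probe sets below the filter from a fit without it. Probe sets were named from the platform annotation where it gave 1 symbol. Figures were drawn with matplotlib 3.10.9.

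The 5 genes, the 6 gene lists and the naming rule were chosen with earlier results of these data known. The rule named the 5 genes, KAT8, up to 4 genes of smallest p per list and the nearest relatives, the 3 nearest genes by profile, and up to 10 genes called in opposite directions. BMPR1B, SMAD7, KLHL17, CUL3, the genes named only under the replicate block, and the neighbouring genes on the chromosome, were added after their values were seen.

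Pairing by replicate number was checked on how far each array lay from its group mean: same-numbered arrays of different groups correlated from 0.083 to 0.447 across probe sets, and from 0.106 up where 1 was a knockdown array. Arrays of different number correlated from -0.377 to 0.284, so the ranges overlapped. Wild type replicate 3 correlated at 0.180 with knockdown replicate 2 and at 0.137 with knockdown replicate 3. The replicate 1 arrays correlated with each other from 0.352 to 0.447. The numbers may pair the samples, though these values do not settle the pairing of replicates 2 and 3. The main fit took group only and left such pairing out, and the replicate block took it in. Differences, SE and adjusted p are from the fit without the block unless the block is named. Values with the block are given for some of the calls and counts that it changed. Alternatives were no filter, a filter at the 75th percentile, a pseudocount of 32, quantile normalization, the replicate block, a term for replicate 1 and leaving out each array.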

Additional observations from a re-analysis of the deposited data

How the results depend on the processing

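The log2 differences of the 7 tested probe sets of the 5 genes kept their sign and moved by less than the spread between replicates under every alternative listed with the processing. For example, that of ZCCHC12 ran from 1.28 to 1.36 after overexpression and from -0.73 to -0.46 after knockdown. Probe sets called numbered 130 after overexpression, 4289 after knockdown and 3963 between the treatments. With the replicate number as a block they numbered 1022, 7637 and 7334, and with a term for replicate 1 1109, 7706 and 7425. Without 1 array they ran from 25 to 97, from 2213 to 3653 and from 2040 to 3289. Opposite calls numbered 13, 66 with the replicate block, 77 with the term for replicate 1, and from 4 to 10 without 1 array. Genes of the 6 lists called numbered 1, 16 and 14 in the 3 comparisons, 7, 25 and 25 with the replicate block and 8, 26 and 24 with the term for replicate 1. The block ended no call of a list gene. Without 1 array the list counts ran from 0 to 1, from 11 to 17 and from 8 to 11, and without the filter the last was 9. The dimmer KAT8 probe set differed by 0.11 after overexpression, and from -0.13 (without overexpression replicate 1) to 0.27 without 1 array. The cause of these changes was not tested, save that leaving out an array leaves fewer samples. Probe sets below the filter on dim signal were not tested, and their differences had the widest SE of the 9.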
